A study of Mus musculus with 10 samples.

Results

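The genes described here are 10 genes of ovulation and of the expansion of the cumulus, namely Has2, Ptgs2, Tnfaip6, Ptx3, Areg, Ereg, Btc, Pgr, Vcan and Edn2. They were chosen by name from the 55487 genes of the deposited table, and all 10 were found in it. Their read counts were compared across 10 mouse ovaries, each with a library of its own. The 4 Control ovaries came from mice aged 8 weeks. The 3 Aged and 3 Aged+CF ovaries came from old mice, aged 11 months in the labels and 10 months in the study's methods. All mice had the C57BL/6J background. CEFFE, a cell-free protein extract of fat tissue, was the treatment that set Aged+CF apart, in intravenous doses of 200 µL at 3 µg/µL that were repeated over a fortnight. Saline took its place in the other groups. All groups shared an injection of 10 IU of PMSG, a gonadotropin that acts mainly like FSH and drives follicle growth, and ovaries were collected 48 h later. No hCG, the usual stand-in for the ovulatory LH surge, is named for these ovaries in the sources used here, and the stage of each mouse relative to an LH surge of its own is not given.

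In the preovulatory follicle, the LH surge acts on granulosa cells, which release the EGF-like ligands amphiregulin (Areg), epiregulin (Ereg) and betacellulin (Btc). These ligands act on EGF receptors of cumulus and granulosa cells, where prostaglandin synthesis (Ptgs2) and hyaluronan synthesis (Has2) are induced. The hyaluronan is held together by Tnfaip6, Ptx3 and versican (Vcan) into the matrix in which the cumulus expands, while the progesterone receptor (Pgr) and endothelin 2 (Edn2) are needed for rupture of the follicle wall.

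The 3 ligand genes lie side by side on chromosome 5 of GRCm38. Ereg occupies 91074622 to 91093646 and Areg 91139599 to 91148432 on the plus strand, 45.952 kb apart with no annotated gene between them. Btc lies at 91357261 to 91402994 on the minus strand, 208.828 kb beyond Areg, with 2 noncoding genes and no coding gene between. Promoters of 8 of the 10 members were found in the RefSeq table of GRCm38.p6, and Ereg and Has2 were not among them. The 250 bases before the start of 3 members are shown, Areg because its level ran from 0 to 26.0 CPM (counts scaled to library size, after TMM) between ovaries, its neighbour Btc because it stayed between 0.846 and 2.63 CPM, and Vcan because it was the member called after adjustment by edgeR in Aged against Control. They are chr5:91139349-91139598 on the plus strand for Areg, chr5:91402995-91403244 on the minus strand for Btc and chr13:89742513-89742762 on the minus strand for Vcan, all written 5′ to 3′. Capitals mark each match, on either strand, to TGACGTCA (the cAMP response element), its first part TGACG, the TATA box TATAAA, and GGGCGG (the GC box), where matches to TGACG can lie inside TGACGTCA. The E box CACGTG was searched as well and was found in none of the 8 promoters.
Areg: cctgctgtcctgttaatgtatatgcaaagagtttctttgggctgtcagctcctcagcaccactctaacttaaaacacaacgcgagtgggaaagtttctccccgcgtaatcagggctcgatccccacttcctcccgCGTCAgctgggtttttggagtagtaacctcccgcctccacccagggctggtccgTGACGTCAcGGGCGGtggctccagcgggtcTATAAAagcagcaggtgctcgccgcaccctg
Btc: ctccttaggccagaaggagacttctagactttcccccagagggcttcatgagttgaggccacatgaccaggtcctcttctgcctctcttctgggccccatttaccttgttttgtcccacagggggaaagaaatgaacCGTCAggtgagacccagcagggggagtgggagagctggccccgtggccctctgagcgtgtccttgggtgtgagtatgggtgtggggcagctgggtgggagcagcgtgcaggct
Vcan: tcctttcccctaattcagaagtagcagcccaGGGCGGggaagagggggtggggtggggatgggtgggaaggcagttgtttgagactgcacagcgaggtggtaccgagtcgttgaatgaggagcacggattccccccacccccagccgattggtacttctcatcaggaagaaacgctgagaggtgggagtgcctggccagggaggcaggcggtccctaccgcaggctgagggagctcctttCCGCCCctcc

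TGACGTCA was found in the Areg promoter alone among the 8, from 61 to 54 bases before the start, and in 1.55% of all 32851 promoters of the table. TGACG was found in Areg and in Btc (113 to 109 bases before the start, on the opposite strand) and in 17.8% of all promoters. TATAAA was found in Areg (31 to 26 bases before the start) and Pgr, against 12.4% of all promoters. GGGCGG was found in 5 of the 8 (Areg, Pgr, Ptgs2, Tnfaip6 and Vcan), against 32.7% of all promoters, and CACGTG in 6.02% of all promoters. A match describes the letters in this window and not a site that was bound.

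The depth of the libraries ran from 15761789 to 21318254 gene reads, so that 3 counts, taken as the floor of detection, correspond to 0.140 to 0.211 CPM. Of the granulosa markers 10 of 10 were detected, as were the oocyte, theca and luteal lists, as an ovary should show. There were 3 libraries that stood apart for the genes described here. Control 33 and Aged 34 held reads of oviduct markers, with summed levels of 342 and 285 CPM against 1.55 to 32.1 CPM in the other 8 ovaries. Aged 34 also had the highest sums of B and plasma cell (179 CPM), macrophage (1255 CPM), stroma and fibroblast (5455 CPM), surface epithelium (292 CPM) and adipocyte markers (152 CPM) and the lowest of oocyte markers (11.5 CPM). Control 32 held high levels of the ligand genes and of Nr4a1, as given below. Results that rest on these libraries are given with and without them. In whole ovaries, fewer cells of a type and less RNA per cell cannot be told apart.

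By edgeR, Vcan was the 1 member called after adjustment for all genes tested, in Aged against Control. It was 3.26-fold lower in Aged than in Control, and Aged+CF lay between them. Ptgs2 and Edn2 had at most 6 and 8 reads in an Aged ovary. Areg and Ereg were high in 1 Control ovary, and all members but Vcan and Edn2 overlapped between Aged and Control.

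Genes were called at a fold of at least 1.5 and p under 0.05 by edgeR's quasi-likelihood test, once with p adjusted over the 18956 genes tested (Benjamini-Hochberg) and once without. All members but Has2, 9 in number, passed the filter on low counts. Between Aged and Control, 1 of 9 was called after adjustment (Vcan), where 11.1% of all tested genes were. DESeq2 called Vcan as well, and 14.6% of these genes. At unadjusted p, Vcan and Ptgs2 were called, both lower in Aged, against 18.2% of all genes in either direction and 9.44% on the lower side. Vcan and Edn2 were lower in Aged without overlap of the groups, against 15.6% of all genes.

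Between Aged+CF and Aged, 0 of 9 were called after adjustment by edgeR, against 0.00528% of all genes, and 2 by DESeq2 (Vcan and Edn2), against 2.33%. The same 2 genes were called by edgeR at unadjusted p, both higher in Aged+CF, against 7.96% of all genes in either direction and 3.91% on the higher side. Vcan, Ptgs2 and Edn2 were higher in Aged+CF without overlap, against 10.2% of all genes. Between Aged+CF and Control, 0 of 9 were called after adjustment by either tool, against 0.179% of all genes by edgeR and 2.79% by DESeq2. At unadjusted p, Areg and Ptx3 were called, both lower in Aged+CF, against 7.69% of all genes in either direction and 4.36% on the lower side. Vcan was lower without overlap, against 12.2% of all genes.

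Areg, a ligand shed by granulosa cells within hours of the LH surge, was abundant in 1 ovary of 10. Its level was 26.0 CPM in Control 32 and 0, 1.11 and 0.159 CPM in Control 31, 33 and 34, 0, 0 and 1.65 CPM in Aged 31, 33 and 34, and 0 in Aged+CF 30, 32 and 34. Of the 10 libraries 6 had no Areg read, among them all 3 of Aged+CF, where a count of 0 allows up to 0.140 to 0.172 CPM. Ereg followed the same ovary, with 28.4 CPM in Control 32 against 0.641, 1.37 and 0.900 CPM in Control 31, 33 and 34. It was detected everywhere else too, at 1.91, 0.705 and 3.08 CPM in Aged and 1.26, 2.01 and 0.796 CPM in Aged+CF. The ranges of Ereg overlapped between all groups, and the level in Control 32 was the highest of the 10 ovaries by far.

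Btc, the third ligand, did not share this pattern. It lay at 1.69, 1.62, 2.63 and 1.91 CPM in Control 31, 32, 33 and 34, at 1.19, 0.846 and 2.25 CPM in Aged and at 2.63, 1.89 and 1.69 CPM in Aged+CF. Control 32 was the lowest Control ovary for Btc, and the groups overlapped.

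None of the ligands was called after adjustment by edgeR or DESeq2 in any comparison. Between Aged and Control the log2 fold change was -3.54 ± 2.15 (SE) for Areg (adjusted p = 0.306), -2.02 ± 1.27 for Ereg (adjusted p = 0.313) and -0.44 ± 0.36 for Btc (adjusted p = 0.439). For Ereg this direction came from Control 32, without which the log2 fold change was 0.97. For Areg the mean of Control was 0.424 CPM without Control 32, below the 0.550 CPM of Aged, and Areg then did not pass the filter on low counts. Against the floor of the Aged+CF libraries, the level of Areg in Aged+CF was at least 42.3-fold lower than the Control mean and at least 3.41-fold lower than the Aged mean. Without Control 32 the first bound was 2.63-fold, and without Aged 34 no fold can be given, since both groups were then at 0. At unadjusted p Areg was called in Aged+CF against Control (adjusted p = 0.309), a call that was lost when any 1 of the Aged+CF ovaries was left out. Without Control 32 or Control 33 Areg was not tested.

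**Figure D1:**
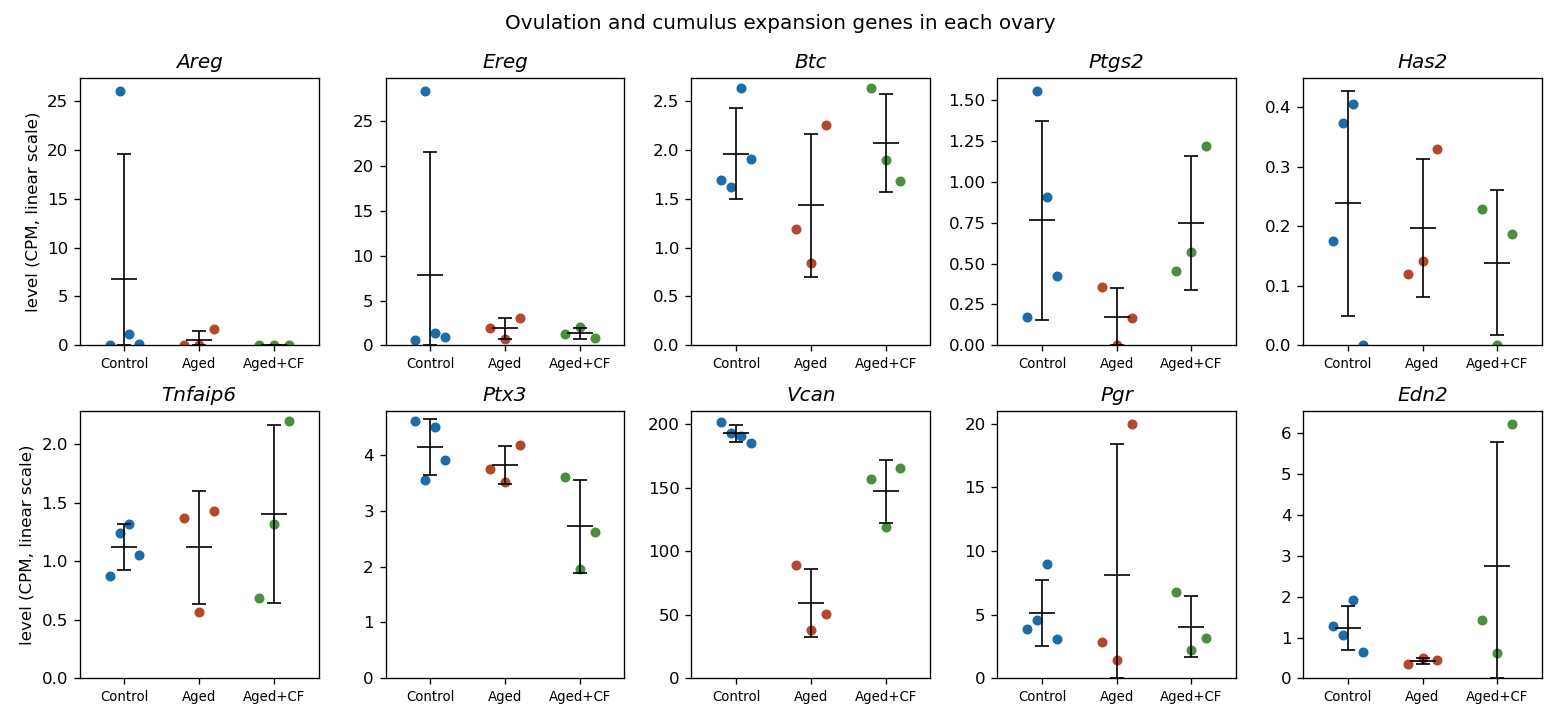
Level of each of the 10 genes in each ovary (CPM, linear axis from 0, scaled per gene), with 1 point per ovary, a horizontal bar at the group mean and whiskers of 1 SD cut at 0. Areg and Ereg reach 26.0 and 28.4 CPM in a single Control ovary, and for Vcan the 3 groups do not overlap.

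Ptgs2, the inducible cyclooxygenase, was low in all ovaries, with at most 26 reads. Its level was 0.175, 1.56, 0.911 and 0.423 CPM in Control 31, 32, 33 and 34 and 0.357, 0 and 0.165 CPM in Aged 31, 33 and 34, or at most 25 and 6 reads. In Aged+CF it was 0.458, 0.573 and 1.22 CPM, each above every Aged ovary and within the range of Control. The log2 fold change of Ptgs2 was -2.04 ± 0.90 between Aged and Control (adjusted p = 0.15). Its call at unadjusted p was lost when Aged 33 or Aged 34 was left out, and without Control 32 or Control 33 Ptgs2 did not pass the filter and was not tested. Against Aged, the log2 fold change in Aged+CF was 2.03 ± 0.93 (adjusted p = 0.315), and against Control it was -0.01 ± 0.75 (adjusted p = 0.999).

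Has2, the hyaluronan synthase of the expanding cumulus, had at most 8 reads in any ovary. It lay at 0.175, 0.373, 0.405 and 0 CPM in Control, 0.119, 0.141 and 0.330 CPM in Aged and 0.229, 0 and 0.187 CPM in Aged+CF, with overlap of all groups. It was the member that did not pass the filter on low counts and was not tested. No statement on a difference in Has2 is made on so few reads.

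Tnfaip6, which transfers heavy chains from inter-alpha-trypsin inhibitor to hyaluronan, differed little between groups. It lay at 0.874, 1.24, 1.32 and 1.06 CPM in Control, 1.37, 0.564 and 1.43 CPM in Aged and 0.687, 1.32 and 2.20 CPM in Aged+CF. The Aged and Aged+CF ranges each enclosed that of Control, and the log2 fold changes were 0.01 ± 0.43, 0.32 ± 0.46 and 0.33 ± 0.43 for Aged against Control, Aged+CF against Aged and Aged+CF against Control.

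Ptx3, the pentraxin that joins these chains, was read more often. It lay at 4.60, 3.55, 4.50 and 3.92 CPM in Control, 3.75, 3.52 and 4.18 CPM in Aged and 3.61, 1.95 and 2.62 CPM in Aged+CF. The lowest values were those of Aged+CF 32 and 34, and Aged+CF 30 overlapped with both other groups. Against Control, the log2 fold change of Ptx3 in Aged+CF was -0.60 ± 0.24 (adjusted p = 0.293), and the call at unadjusted p was lost without Control 31, Control 33, Aged+CF 32 or Aged+CF 34. The log2 fold change was -0.12 ± 0.23 between Aged and Control (adjusted p = 0.78) and -0.49 ± 0.25 between Aged+CF and Aged (adjusted p = 0.362).

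Vcan, the large proteoglycan that binds hyaluronan in the matrix of growing and expanding follicles, was the member with the clearest difference between groups. Its level was 202, 194, 191 and 186 CPM in Control 31, 32, 33 and 34, 89.1, 37.8 and 50.5 CPM in Aged 31, 33 and 34, and 157, 119 and 166 CPM in Aged+CF 30, 32 and 34. The means were 193 ± 6.80 CPM (SD, n = 4), 59.1 ± 26.7 CPM (SD, n = 3) and 147 ± 24.7 CPM (SD, n = 3). No ovary of Aged reached the lowest of Aged+CF, and no ovary of Aged+CF reached the lowest of Control. The Aged ovaries differed among themselves by more than the Control ovaries did.

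From Control to Aged, Vcan fell by 1.71 on the log2 scale (SE 0.26, adjusted p = 0.0055), or 3.26-fold. Over 14 alternatives its log2 fold change ranged from -2.10 to -1.43, with adjusted p between 9.82e-09 and 0.0566, and the call was lost with the replicate number as a block. Compared with Aged, Vcan was 2.49-fold higher in Aged+CF (log2 fold change 1.32 ± 0.26), a call at unadjusted p that edgeR did not make after adjustment (adjusted p = 0.15) and that held when any 1 ovary of these groups was left out. This difference passed after adjustment without Aged 31 (log2 fold change 1.72, adjusted p = 0.0222) and in the Wald test of DESeq2 (adjusted p = 0.000627). Compared with Control, its log2 fold change in Aged+CF was -0.39 ± 0.24 (adjusted p = 0.494), below the fold of 1.5 used here.

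Summed granulosa markers moved in the same direction as Vcan between Control and Aged. Their summed level was 5184 to 8066 CPM in Control, 3355 to 4465 CPM in Aged and 2963 to 5081 CPM in Aged+CF. Of these 10 markers, 10 were on the lower side in Aged against Control, where 50.1% of all genes were. Among them 1 was called lower after adjustment and 5 at unadjusted p, against 6.06% and 9.44% of all genes. In Aged+CF against Aged, 7 were on the higher side and 3 on the lower. At unadjusted p 2 were called higher there, against 3.91% of all genes. Compared with Control, 10 were on the lower side in Aged+CF, where 54.1% of all genes were. At unadjusted p 3 of these were called, against 4.36% of all genes. Summed oocyte markers were 337 to 463 CPM in Control, 11.5 to 95.5 CPM in Aged and 131 to 198 CPM in Aged+CF. Of the 6 stroma and fibroblast markers none passed either test in any comparison (edgeR). Other sums were higher in every Aged ovary than in any Control ovary. They were 454 to 534 CPM against 304 to 384 CPM for endothelium, 570 to 1255 CPM against 316 to 381 CPM for macrophage, 7.80 to 17.2 CPM against 2.38 to 4.14 CPM for T and NK cell and 6.69 to 179 CPM against 3.55 to 4.60 CPM for B and plasma cell markers. The luteal sum did the same, as given beside Lhcgr. The theca sum was also higher (7104 to 13904 CPM against 2556 to 5242 CPM). However, of its 5 markers 1 was called higher and 2 lower after adjustment, where 948 and 1148 of all 18956 tested genes were. In Aged+CF, endothelium markers summed to 392 to 425 CPM and macrophage markers to 501 to 549 CPM. T and NK cell markers summed to 3.55 to 5.90 CPM there and B and plasma cell markers to 3.89 to 6.77 CPM. The part of these cell types in the Vcan difference was not tested. An antisense gene that overlaps Vcan, Gm4117, had at most 91 reads in an ovary against at least 537 of Vcan. The use of strand in counting is not given in the sources used here.

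Pgr, the receptor by which progesterone acts in granulosa cells before rupture, was highest in an Aged ovary. It lay at 3.90, 4.54, 8.96 and 3.12 CPM in Control 31, 32, 33 and 34, 2.86, 1.41 and 19.96 CPM in Aged 31, 33 and 34, and 6.81, 2.24 and 3.14 CPM in Aged+CF 30, 32 and 34. The 3 highest Pgr levels were those of Aged 34, Control 33 and Aged+CF 30, which are also the 3 ovaries with the most oviduct marker reads. In these, Ovgp1, the gene of an oviductal glycoprotein, was at 245, 297 and 31.2 CPM, and Foxj1, a factor of ciliated cells, at 32.2, 36.6 and 0.229 CPM. In Aged+CF 30 the sum was thus nearly all Ovgp1, and its Foxj1 level was below the 0.459 and 0.609 CPM of the other Aged+CF ovaries.

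Groups overlapped for Pgr in all comparisons. Between Aged and Control its log2 fold change was 0.66 ± 0.78 (adjusted p = 0.613), and -1.22 without Aged 34. Between Aged+CF and Aged it was -1.002 ± 0.85 (adjusted p = 0.58), and 0.90 without Aged 34. Between Aged+CF and Control it was -0.34 ± 0.80 (adjusted p = 0.885). The direction of Pgr between the old groups and between Aged and Control thus depended on 1 library. The part of oviduct tissue, or of the other markers that set Aged 34 apart, in the Pgr level was not tested.

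**Figure D2:**
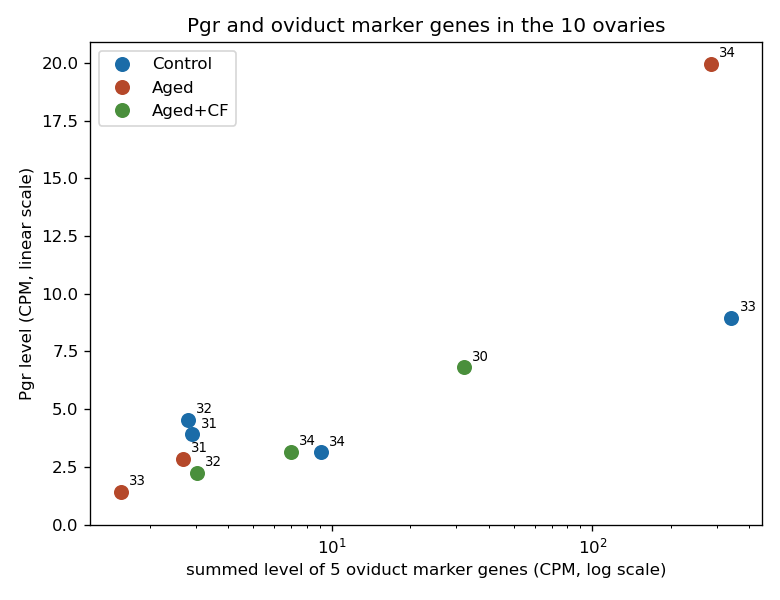
Pgr level (CPM, linear axis) against the summed level of 5 oviduct marker genes (CPM, log axis), with 1 point per ovary coloured by group and its replicate number beside it. Aged 34, with 285 CPM of oviduct markers, has the highest Pgr level at 19.96 CPM, followed by Control 33 and Aged+CF 30.

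Edn2, the endothelin made by granulosa cells for a short time around ovulation, was lowest in Aged. It lay at 1.28, 1.06, 1.92 and 0.635 CPM in Control 31, 32, 33 and 34, 0.357, 0.493 and 0.440 CPM in Aged 31, 33 and 34, and 1.43, 0.631 and 6.23 CPM in Aged+CF 30, 32 and 34. The Aged ovaries, with 6 to 8 reads each, lay below every ovary of the other groups, and Aged+CF 34, with 133 reads, lay above all others. The log2 fold change of Edn2 was -1.50 ± 0.77 between Aged and Control (adjusted p = 0.214). Compared with Aged, Edn2 was 6.41-fold higher in Aged+CF (log2 fold change 2.68 ± 0.79), a call at unadjusted p that edgeR did not make after adjustment (adjusted p = 0.183) and DESeq2's Wald test did (adjusted p = 0.028). Without Aged+CF 34 this log2 fold change was 1.24 and the call was lost, and that of Aged+CF against Control moved from 1.18 ± 0.65 to -0.23.

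Over the 9 tested members, the median log2 fold change was -1.50 in Aged against Control, 0.32 in Aged+CF against Aged and -0.34 in Aged+CF against Control. Over all tested genes it was -0.00053, -0.021 and -0.028. The members' first median was -0.18 without Control 32 and -0.27 without Control 33, with 7 members tested in each. The second ran from -0.17 (without Aged+CF 34) to 0.90 (without Aged 34) and the third from -0.46 (without Aged+CF 34) to 0.074 (without Control 33), so that their signs depended on single ovaries. The comparisons share samples, and the filter on low counts left out Has2.

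**Figure D3:**
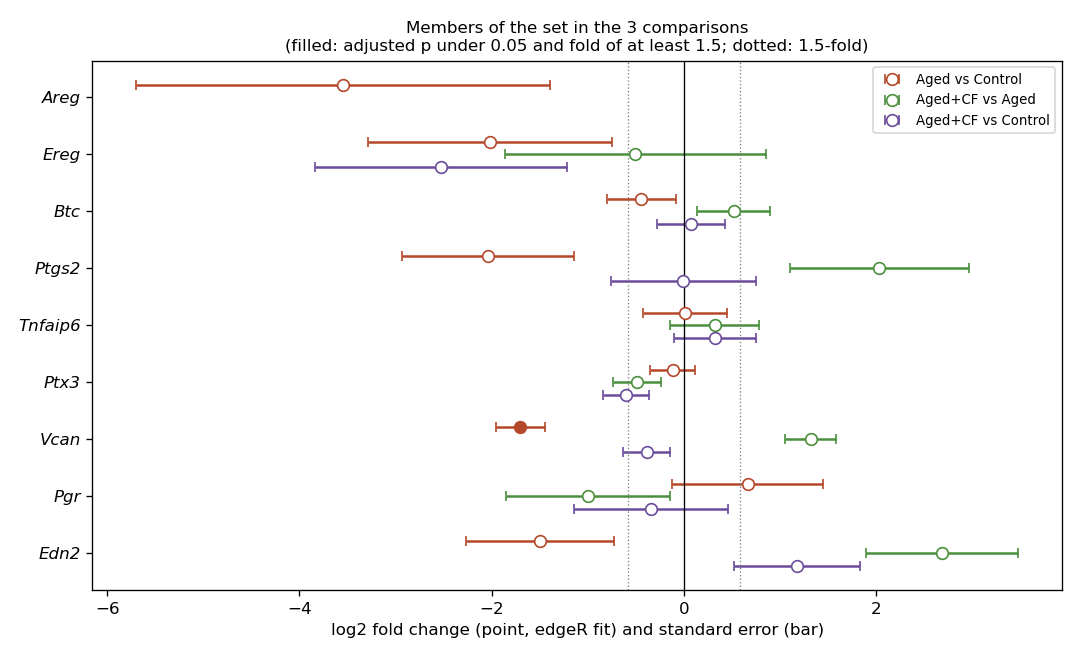
Log2 fold change (points) and standard error (bars) of the 9 tested members in the 3 comparisons, with filled points where adjusted p was under 0.05 and the fold at least 1.5, and dotted lines at a fold of 1.5. The filled point is Vcan in Aged against Control at -1.71, and Areg is left out against Aged+CF, where it had no read.

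A wider list of 66 genes of the ovulatory pathway was read as well, of which 60 were tested. Over that list 9 of 60 were called after adjustment between Aged and Control, 2 higher and 7 lower in Aged, where 11.1% of all tested genes were. In the other comparisons none was called after adjustment by edgeR with all 10 ovaries in the fit. DESeq2 called 2 in each, against 2.33% of all genes in Aged+CF against Aged and 2.79% in Aged+CF against Control. At unadjusted p edgeR called 6 between Aged+CF and Aged and 9 between Aged+CF and Control, where 7.96% and 7.69% of all genes were. The median log2 fold change over the list was -0.24 for Aged against Control, 0.089 for Aged+CF against Aged and -0.19 for Aged+CF against Control.

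Of 7 tested genes of EGF receptor signalling, Erbb2, a receptor that pairs with other EGF receptors, fell in Aged. It lay at 80.7, 73.1, 67.0 and 90.5 CPM in Control, 35.3, 21.9 and 40.1 CPM in Aged and 50.7, 51.8 and 61.4 CPM in Aged+CF. The 3 groups did not overlap. The log2 fold change was -1.26 ± 0.20 between Aged and Control (adjusted p = 0.0062) and 0.75 ± 0.21 between Aged+CF and Aged (adjusted p = 0.173).

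Among 11 genes of prostaglandin synthesis and transport, none passed after adjustment by edgeR in any comparison. At unadjusted p, Ptgs1, the constitutive cyclooxygenase, was higher in Aged than in Control (log2 fold change 0.59 ± 0.26, adjusted p = 0.155) and Hpgd, which breaks prostaglandins down, was lower (-0.72 ± 0.26, adjusted p = 0.0937). Compared with Control, Hpgd (-0.60) and the receptor gene Ptger3 (-0.88) were lower in Aged+CF at unadjusted p.

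Of 14 tested genes of the hyaluronan matrix and of versican proteases, 2 were called after adjustment between Aged and Control, against 11.1% of all genes. Hapln1, a link protein that ties proteoglycans such as versican to hyaluronan, lay at 1.05, 1.37, 1.42 and 1.32 CPM in Control, 3.69, 8.88 and 3.08 CPM in Aged and 2.98, 4.87 and 0.890 CPM in Aged+CF. It rose in Aged (log2 fold change 2.003 ± 0.53, adjusted p = 0.0328), the opposite direction to Vcan. Itih2, a heavy chain that Tnfaip6 transfers, fell in Aged (-1.20 ± 0.36, adjusted p = 0.0488). Over 14 alternatives the call of Hapln1 was lost in 7 and that of Itih2 in 10. Has1, another hyaluronan synthase, was higher in Aged+CF than in Aged at unadjusted p (1.54 ± 0.62, adjusted p = 0.267), with overlap of the groups. It had only 3 to 18 reads in an Aged ovary and 19 to 42 in an Aged+CF ovary. Over 13 alternatives its log2 fold change ran from 0.56 to 2.49. Hapln3 was lower in Aged+CF than in Control at unadjusted p (-1.02 ± 0.43, adjusted p = 0.32).

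Of 7 tested genes listed as progesterone receptor targets, none passed after adjustment by edgeR. At unadjusted p, Cited4 was higher in Aged than in Control (0.94 ± 0.31, adjusted p = 0.0694), as was Cxcr4 (0.90 ± 0.34, adjusted p = 0.104), and Cited4 (1.13 ± 0.31) and Prkg2 (1.07 ± 0.36) were higher in Aged+CF than in Control. Of the 6 endothelin genes, Ece1, which cleaves endothelins to their active form, fell in Aged (-0.62 ± 0.11, adjusted p = 0.00836). Ednrb, an endothelin receptor, was lower in Aged+CF than in Aged at unadjusted p (-0.79 ± 0.25, adjusted p = 0.202), and Ece2 was lower in Aged+CF than in Control (-0.68 ± 0.23, adjusted p = 0.239).

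Lhcgr, the receptor through which LH starts the cascade, was highest in Aged. It lay at 783, 442, 693 and 234 CPM in Control 31, 32, 33 and 34, 1964, 1859 and 1785 CPM in Aged and 535, 498 and 304 CPM in Aged+CF. Aged did not overlap with either group, and Aged+CF lay within the range of Control. Its log2 fold change was 1.80 ± 0.36 between Aged and Control (adjusted p = 0.0127) and -2.07 ± 0.40 between Aged+CF and Aged (adjusted p = 0.15). Lhcgr also belongs to the luteal marker list. Of the 6 genes of that list, 6 were called higher in Aged than in Control after adjustment, where 948 of all 18956 tested genes were. The summed levels of the list were 4318 to 7074 CPM in Control, 9163 to 23113 CPM in Aged and 8446 to 14640 CPM in Aged+CF. The part of luteal tissue in the Lhcgr difference was not tested.

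Of the other 9 gonadotropin receptor and transcription factor genes none passed after adjustment by edgeR. At unadjusted p, Fshr, the FSH receptor (0.85 ± 0.31), and Runx1 (0.69 ± 0.29) had higher levels in Aged+CF relative to Aged. Cebpa (-0.72 ± 0.30) was lower in Aged+CF relative to Control. Between Aged and Control, Fshr was lower in Aged at unadjusted p (-0.91 ± 0.29, adjusted p = 0.0609). In that comparison 2 genes of this role, Lhcgr included, were called higher and 2 lower at unadjusted p, against 8.79% and 9.44% of all genes. Of the 5 genes of oocyte factors and of the meiotic arrest pair, 4 fell in Aged after adjustment, against 6.06% of all genes. These 4 include the oocyte ligands Gdf9 (-2.48 ± 0.52, adjusted p = 0.0145) and Bmp15 (-2.53 ± 0.64, adjusted p = 0.0277), which enable the cumulus to expand. Nppc (-0.79 ± 0.23, adjusted p = 0.0441), the granulosa ligand that holds the oocyte in meiotic arrest until LH acts, was also among them. Over 14 alternatives the call of Gdf9 was lost in 1, that of Bmp15 in 5 and that of Nppc in 9. Compared with Control, Gdf9 (-1.39) and Nppc (-0.88) were lower in Aged+CF at unadjusted p. Summed oocyte markers moved with Gdf9 and Bmp15, as given beside Vcan, and 2 of those markers are Gdf9 and Bmp15 themselves.

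The 10 members did not move as 1 set across ovaries. In Control 32, Ereg was 31.5-fold above the median of the other Control ovaries, and Ptgs2 3.67-fold. Has2 had 6 reads there and 0 to 8 in the other Control ovaries. Ptx3 (0.788-fold), Edn2 (0.825-fold), Btc (0.849-fold), Vcan (1.01-fold), Pgr (1.16-fold) and Tnfaip6 (1.18-fold) stayed near that median. Of 117 other listed genes with at least 1 CPM there or in that median, 8 were at least 2-fold above it in Control 32. They were Nr4a1, an immediate early transcription factor induced by LH (23.5-fold, 829 CPM), Cyp19a1, the aromatase (5.90-fold), Cyp17a1, an androgen-synthesizing enzyme of theca cells (4.28-fold), Egr1 (3.98-fold), the prostaglandin receptor gene Ptger4 (3.83-fold), Cxcr4 (2.38-fold), Cebpa (2.35-fold) and Adamts1, which cleaves versican (2.07-fold). At most 0.5-fold were 6, namely Runx2 (0.490-fold), the oviduct markers Ovgp1 (0.304-fold) and Foxj1 (0.229-fold) and the adipocyte markers Fabp4 (0.223-fold), Adipoq (0.126-fold) and Cfd (0.103-fold). These values describe 1 ovary and have no replicate.

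**Figure D4:**
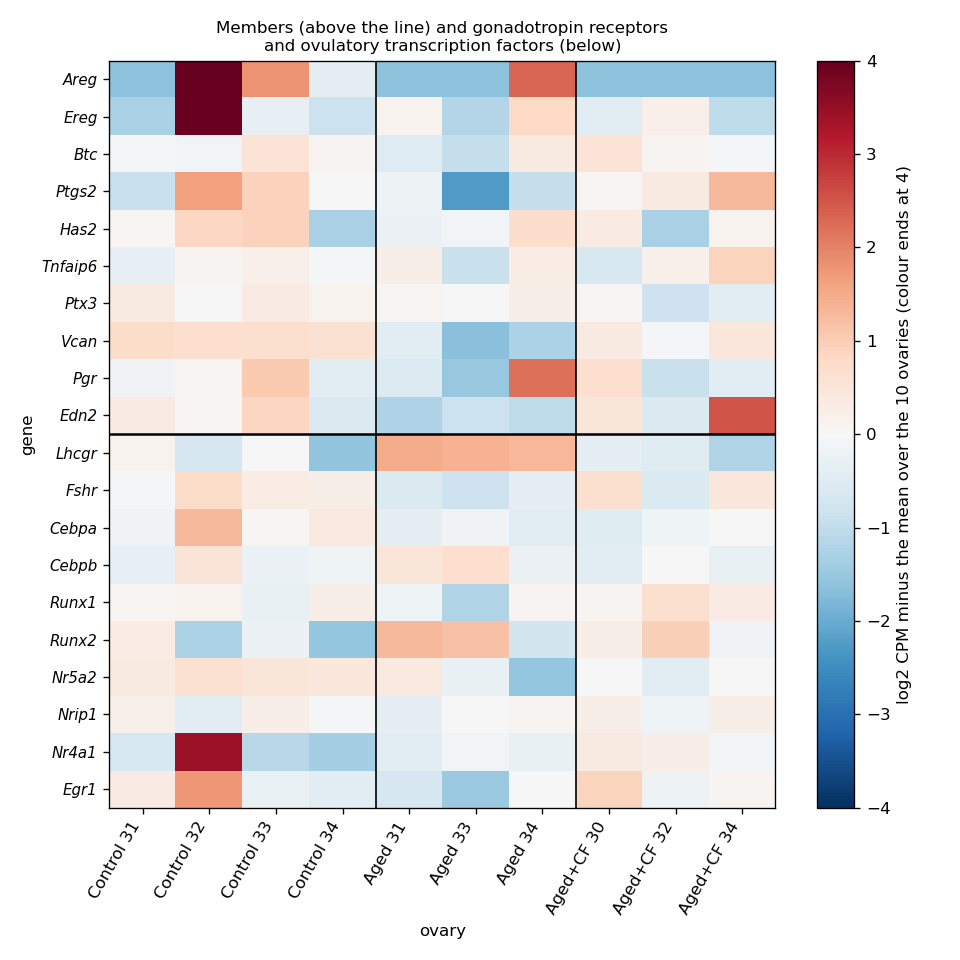
Log2 CPM (prior count 2) minus the mean over the 10 ovaries, by colour, for the 10 members (above the horizontal line) and 10 gonadotropin receptor and transcription factor genes (below), with ovaries in columns by group. Areg, Ereg and Nr4a1 are dark red in Control 32, Lhcgr is red in the 3 Aged ovaries and Edn2 in Aged+CF 34.

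Over the 10 ovaries, Pearson's r of log2 CPM between members was highest for Areg and Ereg (0.868), followed by Btc and Pgr (0.744) and by Ptgs2 and Vcan (0.741). These are descriptions over 10 ovaries of 3 groups that share a scaling, and Areg was at 0 in 6 of them. Without Control 32, r of Areg and Ereg was 0.520. The genes most like each member across all tested genes were Stn1 (0.959), Enc1 (0.945) and Adrb1 (0.934) for Areg, and 0.896, 0.832 and 0.784 without Control 32. They were Nr4a2 (0.937), Enc1 (0.917) and Ccnl1 (0.915) for Ereg, values that were 0.626, 0.553 and 0.544 without Control 32. For Vcan they were Mex3a (0.987), Tut4 (0.986) and Cc2d2a (0.985), and 0.986, 0.986 and 0.987 without Control 32.

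The other members had their most similar genes at lower or like values. They were Gm5862 (0.959), Gm21663 (0.950) and Rbm11 (0.949) for Btc, Pik3r4 (0.944), Cc2d1b (0.929) and Atl1 (0.911) for Ptgs2, and Rnf31 (0.905), Rubcnl (0.893) and Pacsin1 (0.862) for Tnfaip6. For Ptx3 they were Slc16a7 (0.927), Czib (0.907) and Rell2 (0.898), for Pgr Gm43461 (0.966), Tnfaip8l3 (0.965) and Fyb2 (0.961), and for Edn2 Itpkc (0.908), Gm47806 (0.903) and Crkl (0.899). Each was the highest of 18956 genes over 10 points, so that high values arise among many genes.

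Per length, on the FPKM scale, Vcan had the highest level of the 10 members in every ovary but Control 32, where Areg reached 21.8 FPKM against 9.86 FPKM of Vcan. The length behind the FPKM was 20003 bases for Vcan, 12576 for Pgr and 7590 for Btc, against 14462, 8546 and 4520 exonic bases. It was also longer for Ptx3 and Ptgs2 and the same for the others. A longer length lowers the FPKM, which limits the comparison of levels between genes. In Control the medians were 9.94 FPKM for Vcan, 1.42 for Ptx3, 0.824 for Edn2, 0.691 for Tnfaip6, 0.548 for Areg, 0.345 for Pgr, 0.286 for Ereg, 0.245 for Btc, 0.148 for Ptgs2 and 0.0664 for Has2. Below Vcan, each gene of this order overlapped with the next over the Control ovaries, so that their order is not firm. In Aged the order began with Vcan (2.53), Ptx3 (1.18) and Tnfaip6 (0.777), and in Aged+CF with Vcan (8.06), Edn2 (1.004), Ptx3 (0.852) and Tnfaip6 (0.771), of which the last 3 overlapped.

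Within their families the members were often the minor part of the level per length. Of the summed FPKM of 7 EGF-like ligand genes, the median share of Tgfa was 77.6% over Control, 86.9% over Aged and 86.2% over Aged+CF, while Areg and Ereg held 54.4% and 17.5% in Control 32. Of the 3 hyaluronan synthases, Has2 held at most 10.2% in an ovary and Has3 at least 61.0%. Ptgs2 held 2.62% to 19.8% of the cyclooxygenases in Control, 0 to 4.02% in Aged and 4.53% to 8.77% in Aged+CF. Edn2 held 14.9% to 27.7% of the endothelins in Control, 7.19% to 14.7% in Aged and 16.1% to 57.8% in Aged+CF, where the highest share was that of Aged+CF 34.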

How the data were processed

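RNA from 10 mouse ovaries, 4 Control, 3 Aged and 3 Aged+CF by their labels, was sequenced, 1 library per ovary. Read counts per gene, without normalization, were deposited by the authors, and the submitters' processing notes place them after TopHat (version not given in the sources used here) and Cufflinks 2.1.1 on GRCm38.p4, with the counting tool and its use of strand not given in the sources used here. The authors also deposited FPKM values, the count divided by gene length and by the total of the counts, and these were used for levels between genes and as an alternative scale.

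Counts were analysed with edgeR 4.0.16 in R 4.3.3. Genes were filtered with filterByExpr, which left 18956 of 55487 (18869 genes had no count), and scaled by TMM. All 10 ovaries entered the quasi-likelihood model, with group means and no block, so that the groups shared 1 estimate of spread. A gene was called at a fold of at least 1.5 and p under 0.05, once with the p adjusted by Benjamini-Hochberg over all tested genes and once unadjusted, since the study's text gives both. Standard errors are the log2 fold change divided by the square root of F. Log2 CPM used a prior count of 2. Folds against a group at 0 used a floor of 3 counts per library, averaged over the group. Floors cover counting error only. Standard errors come from the quasi-likelihood fit and include the spread between ovaries, and each SD is that between the ovaries of a group. Nothing in the labels says that the p-values measure more than the spread between these ovaries.

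The members, the list of 66 pathway genes in 7 roles and the marker lists were chosen with earlier results of these data known. All members are named in each comparison. Of each role, up to 4 genes called after adjustment with a mean of at least 1 CPM are named, or else up to 3 called at unadjusted p, as well as the 3 genes most like each member. The rule for genes given for Control 32 (listed, at least 2-fold apart, at least 1 CPM) was chosen after the values were seen. So were Ovgp1, Foxj1, Gm4117 and the single theca markers as examples, and Fshr and Ednrb in Aged beside Control. Positions and overlaps come from GENCODE M21 on GRCm38, in which 55141 identifiers were found. The fit was tested on simulated counts with known changes. Pairs of libraries of a group were compared for duplication, and none was found. The alternatives were no filter, the size factors of DESeq2 1.42.0, its Wald test, only the compared groups, the replicate number as a block, FPKM for levels and leaving out each ovary. Leaving out Control 33 and Aged 34, with or without Control 32, was chosen after the data were seen.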

Additional observations from a re-analysis of the deposited data

Results flagged for a closer look

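In the 4 Control ovaries, the highest or lowest ovary stood apart from the others (gap to the nearest ovary over the whole range, against Dixon's 95% critical value) for 2 of the 10 members and 5 of the 64 pathway genes examined. Among all tested genes this was so for 6.35%, and chance flags about 1 in 20. Groups of 3 were not examined.

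For 5 of these 7 genes the ovary was Control 32 and its level the highest. It had 26.0 CPM of Areg, 28.4 CPM of Ereg, 829 CPM of Nr4a1, 18.4 CPM of Cxcr4 and 286 CPM of Cebpb. Over all tested genes Control 32 was set apart as the highest ovary for 1.22%. The same ovary was the lowest for Erbb4, an EGF receptor family gene, at 0.0622 CPM. For Zbtb16, listed as a progesterone receptor target, Control 34 was the lowest at 3.76 CPM.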

How the results depend on the processing

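Of the 3 comparisons, the call of Vcan in Aged against Control held in 13 of 14 alternatives, and the exception was the replicate block. Of the named pathway genes called after adjustment there, Erbb2 held in 14, Gdf9 in 13, Lhcgr in 12 and Ece1 in 11. Bmp15 held in 9, Hapln1 in 7, Nppc in 5 and Itih2 in 4. Leaving out 1 ovary gave 1 to 2 members at unadjusted p in Aged against Control and 4 to 19 pathway genes after adjustment. In Aged+CF against Aged it gave 0 to 1 and 1 to 3 members and 0 to 3 and 4 to 13 pathway genes (adjusted and unadjusted), and in Aged+CF against Control 0 to 3 members and 4 to 9 pathway genes at unadjusted p. Of all genes, these fits called 5.74% to 16.1% after adjustment and 16.2% to 22.1% at unadjusted p in Aged against Control. In Aged+CF against Aged the shares were 0.00510% to 2.87% and 5.95% to 12.2%. In Aged+CF against Control 4.38% to 7.95% were called at unadjusted p. With 1 ovary left out, the log2 fold change in Aged against Control ranged from -2.50 to 0.97 for Ereg, -0.16 to 0.34 for Tnfaip6 and -1.22 to 1.16 for Pgr. In Aged+CF against Aged it ranged from -0.90 to 0.0070 for Ereg, -0.17 to 0.63 for Tnfaip6 and -1.60 to 0.90 for Pgr. In Aged+CF against Control it ranged from -2.92 to 0.47 for Ereg, -0.11 to 0.25 for Btc, -0.53 to 0.26 for Ptgs2, -0.14 to 0.67 for Tnfaip6, -0.91 to 0.074 for Pgr and -0.23 to 1.64 for Edn2.

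With DESeq2's Wald test, the pathway genes called after adjustment were 17 in Aged against Control and 2 in each of the others, and the members in Aged+CF against Aged were 2. Of all genes 14.6% were called in Aged against Control, 2.33% in Aged+CF against Aged and 2.79% in Aged+CF against Control. In Aged+CF against Control, DESeq2's size factors left 1 member at unadjusted p (7.59% of all genes) and a Ptgs2 log2 fold change of 0.013. Fitting only the compared groups there left 1 member, with Ptgs2 at 0.029, and called 4 pathway genes after adjustment (2.63% of all genes). Without Control 33 and Aged 34, 1 member was called at unadjusted p (22.1% of all genes) and 14 pathway genes after adjustment (14.4%) in Aged against Control. In Aged+CF against Aged 13 pathway genes were called at unadjusted p (12.1%). In Aged+CF against Control 0 members were called at unadjusted p (10.3%) and 2 pathway genes after adjustment (0.832%). The log2 fold changes that turned were then -0.070 (Tnfaip6) and -0.80 (Pgr) in Aged against Control, 0.0042 (Ereg) and 0.90 (Pgr) in Aged+CF against Aged, and 0.13 (Ptgs2) and 0.097 (Pgr) in Aged+CF against Control. Without Control 32 as well, the counts of members and pathway genes were 1, 4, 13 and 0, against 19.5%, 6.86%, 11.6% and 7.64% of all genes. The turned values were then 0.80 (Ereg) and -0.67 (Pgr), 0.013 (Ereg) and 0.90 (Pgr), and 0.81 (Ereg) and 0.22 (Pgr). The cause was not tested.

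Same-numbered ovaries came from different animals, and their deviations correlated between -0.18 and 0.15, so the numbers do not pair the samples. With the replicate block, 0 members were called after adjustment and 1 at unadjusted p in Aged against Control, 2 pathway genes after adjustment there, and 4 members at unadjusted p in Aged+CF against Aged, where 4.68% of all genes were (15.7% at unadjusted p and 0.422% after adjustment in Aged against Control). The log2 fold change was then 0.027 for Areg, 0.43 for Ereg and -0.084 for Tnfaip6 in Aged against Control, and -0.24 for Btc and 0.16 for Ptgs2 in Aged+CF against Control.

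Ptgs2, Has2 and Edn2 in Aged had at most 8 reads in an ovary, and small differences in them were not detectable at this depth. Areg against Aged+CF has bounds only, and its fitted values were not compared. The FPKM scale turned no ratio of group means. With 3 or 4 ovaries per group, the spread rests on few animals.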
